A study of Mus musculus with 54 samples.

Results

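Fresh cell suspensions of adult mouse kidney, made by a cold or a warm dissociation protocol, were profiled both by droplet-based 3′ RNA-seq (10x) and by bulk RNA-seq. The unique molecular identifiers (UMIs) of each 10x library were summed over all of its barcodes, to give 1 profile per library that can be set beside a bulk profile of the same protocol. The comparison, chosen with earlier results of these data known, covers 12 of the 54 libraries of the series. These were picked by their labels, in 4 groups of 3: 10x cold, 10x warm, bulk cold and bulk warm. All 4 groups share their source, kidneys of untreated male AFAPIL.1DEL C57BL/6J littermates that were 19 weeks old, and the AFAPIL.1DEL genotype is not explained further in the sources used here. The cold groups were dissociated on ice with B. Licheniformis protease and the warm groups at 37 °C with the Miltenyi Multi-tissue dissociation kit 2. Per the study's methods the protocols also differed in mincing, trituration, centrifugation and wash solutions. These differences, enzyme and temperature among them, cannot be told apart. Bulk RNA came from the cells of a dissociation that remained after the droplet run, hence both assays sampled a suspension but not the same cells. The headers of the 10x files name 3 mice, each with 1 cold and 1 warm library, whereas no label ties a bulk library to 1 of the 3 mice that the study used.

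The assays read RNA in different ways. The 10x 3′ chemistry primes on poly(A) tails and counts each captured molecule once, near its 3′ end, so a long transcript gives no more UMIs than a short one. Bulk libraries made after depletion of ribosomal RNA are cut from whole transcripts, so reads grow with transcript length, and RNA without a poly(A) tail is kept. In the kidney, podocytes hold the filter of the glomerulus, the proximal tubule takes back most of the filtrate, principal cells of the collecting duct handle water and sodium under hormonal control, and intercalated cells secrete acid or base. A 10x profile contains only RNA from droplets accepted as cells, while bulk RNA also holds whatever lies free in, or was broken open from, the suspension. The comparison therefore asks what a 10x library retained of the RNA of its suspension, and whether both assays showed the same difference between warm and cold dissociation.

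The 10x libraries held 5309551, 8051722 and 7770206 UMIs in the cold group and 5252363, 14064480 and 6299622 in the warm group, from 2356 to 5972 barcodes each. The bulk libraries held 5969212 to 8184923 reads. Of 13392 genes in the 10x files and 27541 in the bulk files, 13364 were shared. Levels are given as CPM, the counts over these shared genes scaled to the same total in every library, unless stated otherwise. No 2 libraries were identical, and pairs of 10x libraries had at most 1.36% of barcode sequences in common. A 0 in the 10x files is not an absence of UMIs. Of 80184 values, 7165 were 0 but 504 lay between 1 and 9 UMIs. The study's methods kept a gene only where at least 10 cells held it. The values mostly showed this limit within each library, as 1053 were held by exactly 10 barcodes and 671 by 1 to 9 barcodes. A 10x library listed 478 to 1816 shared genes at 0, against 96 to 153 for a bulk library. Folds against such a group are given as bounds with each 10x zero set to 10 UMIs and each bulk zero to 3 reads. The 10 UMIs are an assumption on which these bounds rest, since the UMIs behind a 0 are not known. Of the values held by exactly 10 barcodes, 30.2% exceeded 10 UMIs, with a 95th percentile of 14, and 72 of the 671 did so. Whether fewer cells of a type or less RNA per cell lowered a marker cannot be told apart in sums of this kind, for either assay. The study, which typed single barcodes, reported far fewer podocytes in the warm than in the cold 10x libraries. It also set bulk beside 10x data of these suspensions. From cell type shares estimated in bulk, the study proposed that cells of the ascending loop were more frequent before droplet loading.

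The composition of the counted RNA differed widely between the assays in both protocols. Among 12932 genes tested in 1 edgeR fit of the 12 libraries, 1730 (13.4%) were higher in 10x and 7297 (56.4%) lower in the cold suspensions. In the warm suspensions 1755 (13.6%) were higher and 7541 (58.3%) lower. A call needed an adjusted p below 0.05 and a log2 difference of at least 1. The median log2 of 10x over bulk was -1.38 in cold and -1.51 in warm suspensions. With TMM factors the median moved to -0.20 and -0.29, and the calls split into 3416 higher and 3640 lower in cold and 3468 higher and 4210 lower in warm. With DESeq2 they split into 3580 and 3320 and into 3684 and 3910. The share of calls that were higher in 10x was thus 19.2% as CPM, 48.4% with TMM and 51.9% with DESeq2 in cold. The direction of a single gene near the median therefore depends on the scaling, and values below are read against the median of all genes. Counts of list members with TMM or DESeq2 are likewise to be read beside the splits over all genes given here.

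Transcript length ordered the difference. In the shortest decile of genes by GENCODE M21 annotation (exonic length 0.168 to 1.65 kb) the median log2 of 10x over bulk was 1.79 in cold and 1.70 in warm suspensions. In the fifth decile it was -1.42 and -1.63, and in the longest decile (9.84 to 123 kb) it was -2.60 and -3.01. The medians fell at each step from decile to decile in both protocols. Across genes, which are not independent of each other, Spearman's rho between the log2 difference and exonic length over 12864 genes was -0.60 in cold and -0.62 in warm, and -0.10 and -0.19 once bulk counts were divided by exonic length. Division by length also raised the rank correlation across genes between 10x and bulk libraries from 0.634 to 0.672 up to 0.746 to 0.768 in cold suspensions. In warm suspensions it rose from 0.610 to 0.646 up to 0.742 to 0.770. Libraries of 1 assay were far closer to each other, as rho was 0.974 to 0.984 between 10x libraries of 1 protocol and 0.942 to 0.961 between 10x libraries of different protocols. It was at least 0.991 between bulk libraries of 1 protocol and 0.978 to 0.986 between bulk libraries of different protocols. After division by length, 1134 of 12864 genes (8.82%) were higher in 10x and 6492 (50.5%) lower in cold suspensions, and 1109 (8.62%) and 7073 (55%) in warm suspensions, with medians of -1.08 and -1.26. Counts of list members per length below are to be read beside these shares.

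**Figure D1:**
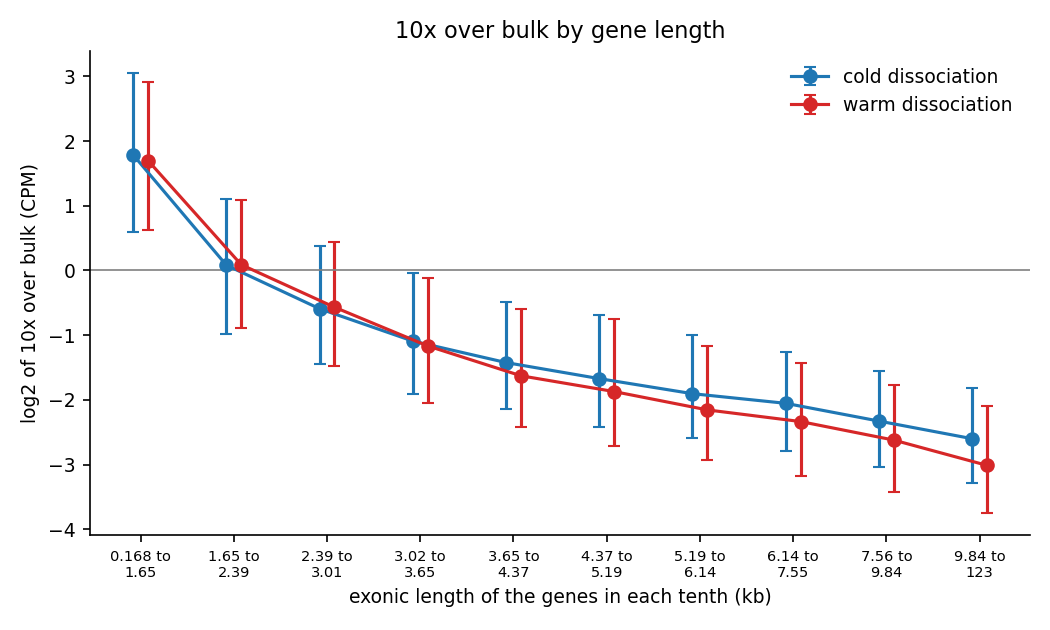
Median log2 of 10x over bulk (y axis, from CPM) for deciles of the tested genes by exonic length (x axis, kb), with bars from the lower to the upper quartile of genes; blue, cold and red, warm suspensions. The median falls from 1.79 in the shortest to -2.60 in the longest decile in cold, and from 1.70 to -3.01 in warm.

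The mRNAs encoded by the mitochondrial genome, which are short, mostly polyadenylated and code for core subunits of the respiratory chain and ATP synthase, held more of the 10x counts than any other class examined. Summed over the 13 mRNAs, they reached 260788, 309735 and 317502 CPM in 10x cold, 202230.0, 258749 and 235447 in 10x warm. They reached 25855, 36282 and 37004 in bulk cold and 24745, 33585 and 34477 in bulk warm. Of the 13, 10 were higher and 2 lower in 10x in either protocol, against 13.4% and 56.4% of all genes in cold and 13.6% and 58.3% in warm (median log2 3.25 in cold and 3.03 in warm). Per length 9 were higher and 3 lower in cold, and 7 higher and 3 lower in warm. Leaving the mitochondrial genes out of all libraries moved the median of all genes to -0.92 in cold and -1.16 in warm.

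The 13 mRNAs did not shift together. mt-Co3 (cytochrome c oxidase subunit, chrM:8607-9390 in GRCm38) measured 55050.0, 72560.0 and 78583 CPM in 10x cold and 47485, 66995 and 53356 in 10x warm. It measured 51.7, 74.5 and 70.5 in bulk cold and 49.6, 72.4 and 58.6 in bulk warm, which is a log2 difference by edgeR of 10.04 (SE 0.27, adjusted p = 1.1e-13) in cold and 9.86 (SE 0.27, adjusted p = 8.9e-14) in warm. mt-Atp6 (ATP synthase) was 38770.0 to 59842 CPM over the 6 10x libraries and 30.0 to 49.5 over the 6 bulk libraries. For mt-Co2 these ranges were 10698 to 16137 against 47.1 to 60.7. By contrast, mt-Co1 of the same complex was 22746 to 54128 against 9132 to 12617 CPM, and mt-Cytb (complex III) 31632 to 47415 against 4249 to 6386. mt-Nd5 and mt-Nd6, both subunits of complex I, went the other way. The ranges were 1147 to 1509 against 3701 to 5859 CPM for mt-Nd5 (log2 -2.08 in cold and -1.89 in warm), and 61.3 to 194 against 360.1 to 847 for mt-Nd6 (-2.37 and -2.94). Of the mitochondrial genes, mt-Co3, mt-Atp6, mt-Atp8, mt-Co1 and mt-Cytb are named by rule, and the others were picked for mention after their values were seen.

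The mRNAs with the largest differences were, with 1 exception, those whose sequence recurs in transcripts of other annotated genes. In GENCODE M21 transcripts, windows of 31 bases that also occur in transcripts of other genes made up 99.9% of mt-Co3, 99.5% of mt-Atp6, 100.0% of mt-Co2, 98.9% of mt-Nd4l and 98.1% of mt-Nd3. These 5 differed by log2 7.81 to 10.38 in cold suspensions. The share was 63.9% in mt-Co1 and 62.8% in mt-Nd4, which differed by 1.96 and 3.25. It was at most 16.8% in mt-Nd1, mt-Nd2, mt-Cytb, mt-Nd5 and mt-Nd6, which differed by -2.37 to 3.16. mt-Atp8, with 7.47%, was the exception at log2 9.89, and 21.1% of its length overlaps an exon of another gene on the same strand. How reads that map to several places or to overlapping genes were assigned in the bulk files is not given in the sources used here. Bulk reads of the study were longer than 31 bases, so shared windows do not by themselves make a read ambiguous. The part of shared sequence in these differences was not tested.

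Short nuclear mRNAs of the translation and respiration machinery were mostly higher in 10x. Genes of the cytosolic ribosome summed to 66721 to 72924 CPM in the 10x libraries and 10301 to 11268 in the bulk libraries. Of these genes 72 of 77 were higher in 10x in cold and 73 in warm with none lower (median log2 2.70 and 2.71). Beside these counts and those of the next list, 13.4% of all genes were higher and 56.4% lower in cold, and 13.6% and 58.3% in warm. After division by length 55 and 58 were still higher and none was lower (median 1.64 and 1.68, against -1.08 and -1.26 for all genes), and the medians stayed positive under every setting tried. Rps29 (small subunit) was 2243 to 2712 CPM in 10x and 56.1 to 72 in bulk, and Rpl41 (large subunit) 3451 to 4311 against 163 to 198. The 75 nuclear genes of the respiratory chain and ATP synthase summed to 56463 to 67567 CPM against 13708 to 14696. Of these, 58 were higher and 2 lower in cold and 61 higher and 1 lower in warm (median log2 2.87 and 2.97). Per length 40 of 74 were higher in either protocol, with 6 lower in cold and 2 in warm. Within this list the small subunits Cox6c and Cox8a of cytochrome c oxidase were 2788 to 3115 and 2275 to 2562 CPM in 10x against 202 to 252 and 229.8 to 247 in bulk. The large subunit genes Atp5b and Atp5a1 of ATP synthase lay below this list's median and nearer to the median of all genes. Atp5b differed by log2 -0.57 in cold and -0.14 in warm, and Atp5a1 by -1.30 and -0.88 (all genes -1.38 and -1.51), and Atp5b in warm was called higher with TMM and DESeq2.

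**Figure D2:**
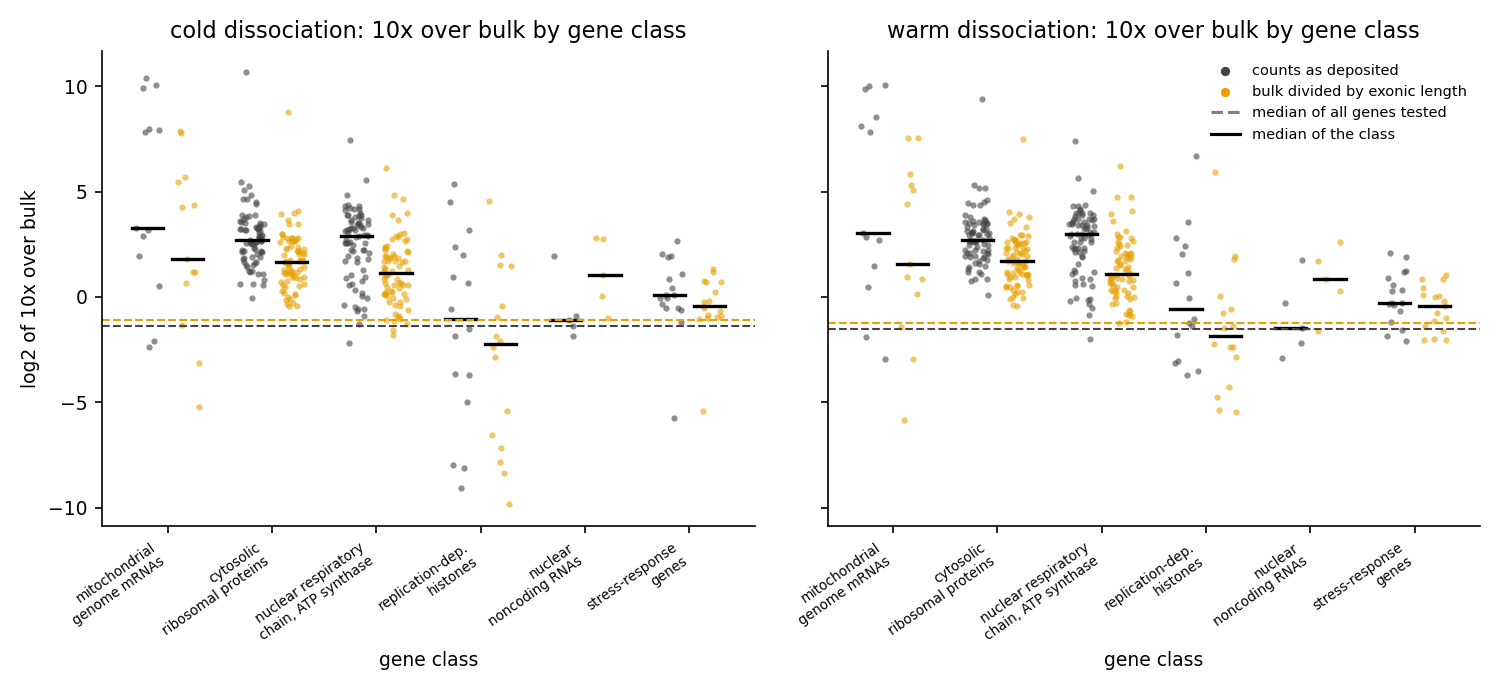
Log2 of 10x over bulk (y axis) for each tested gene of 6 gene classes (x axis), cold suspensions left and warm right; dark, counts as deposited, orange, bulk counts divided by exonic length, black bars, class medians, dashed lines, medians of all genes tested. Ribosomal protein and respiratory chain genes lie mostly above 0 in both panels, while all-gene medians lie at -1.38 and -1.51 as deposited.

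Transcripts that lack a poly(A) tail, or stay in the nucleus, divided. Most replication-dependent histone mRNAs end in a stem loop instead of a poly(A) tail. Of 16 tested, 4 were higher and 8 lower in 10x in either protocol, against 56.4% of all genes lower in cold and 58.3% in warm (median log2 -1.05 in cold and -0.57 in warm, both above 0 with DESeq2 or TMM), and per length 2 were higher and 10 lower. With DESeq2 5 were lower in cold and 3 in warm. Hist1h4c was 2.83, 0 and 1.29 CPM in 10x cold and 2.86 to 5.52 in 10x warm, against 25 to 46.7 in bulk. Hist1h2bc, of the same class, was 549.8 to 802 CPM in 10x and 58.4 to 68.4 in bulk (log2 3.19 and 3.53), so the class did not move as 1 group. Malat1, an abundant RNA of nuclear speckles, was 35222 to 51241 CPM in 10x and 11186 to 14659 in bulk. Neat1, the scaffold of paraspeckles, was instead 270.1 to 349 against 793 to 1578, and Kcnq1ot1, the imprinted antisense transcript, 18.7 to 43.6 against 133 to 207. Both Neat1 and Kcnq1ot1 are very long, and per length they were higher in 10x by log2 1.05 and 2.74 in cold suspensions. Gm42418, a locus that overlaps a ribosomal RNA repeat, was 169 to 339 CPM in 10x and 0.278 to 1.66 in bulk, where reads of ribosomal DNA had been removed before mapping. Of 5 nuclear noncoding RNAs 1 was higher and 3 lower in either protocol, where 13.4% and 13.6% of all genes were higher, but per length 3 were higher and none lower in cold (median log2 1.05, against -1.11 as deposited) and 2 higher and 1 lower in warm. Of 3 loci associated with ribosomal RNA 2 were higher and 1 lower.

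Genes at the far ends were of different kinds. At a fitted log2 difference of at least 5 in both protocols, 94 genes were higher and 67 lower in 10x, out of 12932 tested. The 94 were short (median exonic length 0.777 kb, against 4.37 kb for all genes tested). Among them 19 were annotated pseudogenes (20.2%, against 0.342%) and 17 carried ribosomal protein names (18.1%, against 0.789%). Of the 94, 26 (27.7%, against 7.98%) overlapped an exon of another gene on the same strand, and in 52 (55.3%, against 3.38%) at least 50% of 31-base windows occurred in transcripts of other genes. The 67 were long (median 8.40 kb), none was a pseudogene, and 2 (2.99%) had that much shared sequence. Of the 67, 48 were listed at 0 in at least 1 10x library (71.6%, against 14.6% of all genes tested). A 10x zero itself lowers the fitted difference by which the 67 were picked, so this share follows in part from the choice. For genes with such zeros the fitted difference is no measure of size.

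Usp50 (chr2:126709096-126783470), a ubiquitin peptidase family gene, was 277, 193 and 262 CPM in 10x cold and 218, 211 and 229.7 in 10x warm. Usp50 stood at 0, 0 and 0.33 in bulk cold and 0, 0 and 0.139 in bulk warm, at least 593-fold and 662-fold higher in 10x. Rpl24 was 908 to 976 CPM in 10x and 0.379 to 1.96 in bulk, and shares 47% of its exonic length with another gene on its strand. Tomm6, of the mitochondrial import pore, was 54.3 to 95.6 against 0 to 0.175 and shares 76%. Snhg9, a short noncoding transcript, was 19.8 to 49 CPM in 10x and listed at 0 in all 6 bulk libraries. At the other end stood Slc9a3 (chr13:74121457-74169442), the sodium-hydrogen exchanger NHE3 of the proximal tubule, with 145, 149 and 144 CPM in bulk cold and 167, 165 and 159 in bulk warm. It was listed at 0 in 5 of 6 10x libraries and stood at 0.853 in the other, at least 99.3-fold and 113-fold lower. Slc25a30, a mitochondrial carrier, had the same pattern (128 to 166 CPM in bulk and 0 in 5 of 6 10x libraries). Plau, the urokinase plasminogen activator, was detected in all 10x libraries, with 6.69 to 12.4 CPM against 479 to 907 in bulk. None of Slc9a3, Slc25a30 and Plau overlaps an exon of another gene in the annotation used, and per length Plau stood at log2 -6.86 in cold and -6.78 in warm.

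Marker genes of the kidney cell types, from lists chosen with earlier results of these data known, were all among the shared genes for podocytes, 4 tubule segments and intercalated cells. Of 11 principal cell markers 10 were, and of the adipocyte markers none. Of 20 proximal tubule markers, 1 was higher and 14 lower in cold, and 2 were higher and 14 lower in warm (median log2 -1.85 and -1.51), beside 56.4% and 58.3% of all genes lower. The count depends on the scaling, as with DESeq2 or TMM 7 were lower in cold and 5 in warm (median -0.59 and -0.19 with DESeq2). Kap (chr6:133849851-133853762, GRCm38 as for all positions given), the short androgen-regulated transcript of proximal tubule cells, was higher in 10x in both, with 7589, 5077 and 3733 CPM in 10x cold and 11313, 15826 and 12125 in 10x warm. It reached 1692, 1831 and 1652 in bulk cold and 1796, 1795 and 1805 in bulk warm. Per length, however, Kap stood at log2 -0.77 in cold and 0.41 in warm, so its place above bulk in cold suspensions depends on the length scale. Lrp2 (chr2:69424340-69586065), which encodes the endocytic receptor megalin and has a very long mRNA, was 384, 423 and 450.2 CPM in 10x cold and 346, 399 and 346 in 10x warm. Its level was 11219, 11143 and 11705 in bulk cold and 10146, 9077 and 8926 in bulk warm. The log2 differences were -4.76 (SE 0.12, adjusted p = 5.6e-14) in cold and -4.69 (SE 0.12, adjusted p = 4.4e-14) in warm, and per length -2.63 and -2.58. Slc34a1, the phosphate transporter of the same segment, was 1413 to 1878 CPM in 10x cold, 2093 to 2651 in 10x warm and 4739 to 5349 in bulk. With DESeq2 and TMM its log2 of 10x over bulk in warm turned to 0.29 and 0.18. Ass1, of arginine synthesis, differed by log2 -0.51 in cold and 0.32 in warm.

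The segments past the proximal tubule again had markers on both sides. In the ascending loop of Henle, 7 of 12 markers were lower in 10x in cold and 8 in warm, and 1 was higher, with shares of 56.4% and 58.3% lower over all genes. With DESeq2 or TMM 4 were higher in either protocol and 5 lower in warm. Umod, which encodes the main protein of normal urine, stood at 394 to 1107 CPM in 10x and 3064 to 4396 in bulk, with Slc12a1, the furosemide-sensitive cotransporter, at 152 to 367 against 1453 to 2581 and the growth factor gene Egf at 314 to 590.1 against 3111 to 4317. The 1 marker higher in 10x was Wfdc15b, a small secreted protein gene, at 258 to 608 CPM against 67.7 to 106. Per length it stood at log2 -0.73 in cold and -0.43 in warm, below 0. Slc12a3, the thiazide-sensitive cotransporter of the distal convoluted tubule, was 102 to 197 CPM against 747 to 1876, and 4 of the 6 markers of this segment were lower and 1 higher in 10x in either protocol. Of 5 connecting tubule markers 1 was higher and 2 lower in either protocol. The calcium-binding S100g was 1442 to 2012 CPM in 10x and 123 to 319 in bulk. Slc8a1, the sodium-calcium exchanger with a long mRNA, was 1.91 to 6.03 and 219 to 555. S100g and Slc8a1 thus differed by log2 3.58 and -6.24 between 10x and bulk in cold suspensions, within 1 cell type, and per length by 0.58 and -3.95. In warm suspensions S100g turned to -0.42 per length.

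Among markers of macrophages, B cells, T cells and NK cells, calls of the counts as deposited were more often higher than lower in 10x, where 13.4% of all genes were higher in cold and 13.6% in warm. Macrophage markers summed to 645 to 789 CPM in 10x cold and 465 to 519.6 in 10x warm, against 149.7 to 251 in bulk. Of 11 markers, 6 were higher and 3 lower in 10x in cold and 7 higher and 2 lower in warm (median log2 2.12 and 2.17). The 3 chains of complement C1q led: C1qa was 129 to 207 CPM in 10x and 9.60 to 15.4 in bulk, C1qb 143 to 249 and 25.5 to 39, and C1qc 81.8 to 156 and 7.93 to 17.2. Csf1r, the receptor that macrophages depend on, was lower in 10x, at 18.1 to 26.2 CPM against 49.7 to 90.1, and per length it differed by log2 -1.14 in cold and -0.99 in warm. B cell markers summed to 359 to 692 CPM in 10x cold, 154 to 317 in 10x warm and 84.4 to 171 in bulk, and 6 of 15 were higher in 10x in either protocol and 3 lower in cold and 4 in warm. Igkc, the kappa light chain, was 120.0 to 288 CPM in 10x cold, 50.5 to 117 in 10x warm and 7.79 to 22.1 in bulk. The T cell receptor complex genes Cd3d, Cd3e and Cd3g were the 3 of 9 T cell markers that were higher in 10x in either protocol, with none lower. Of 8 NK cell markers 5 were among the shared genes, as were 4 of 5 monocyte markers and 6 of 7 dendritic cell markers. A marker missing from the 10x files could not be called lower. Of the 5 shared NK cell markers 2 were higher in cold and 1 in warm. They were led by the cytotoxic granule gene Nkg7 at 15.4 to 36.6 CPM in 10x against 0.302 to 1.77 in bulk. Of the 4 shared monocyte markers 2 were higher in 10x in either protocol, and none was lower in cold and 1 in warm. Of the 6 shared dendritic cell markers 1 was higher in either protocol, and 2 were lower in cold and 3 in warm. Per length, 5 macrophage markers were higher and 3 lower in cold and 4 higher and 1 lower in warm (median 0.89 and 0.62), and 4 B cell markers were higher and 3 lower in cold and 5 higher and 5 lower in warm (median 0.65 and 0.058). For T cell markers 5 were higher per length in cold and 4 in warm, for NK cell markers 1 in either, with none lower. In warm suspensions the median of the T cell list was below 0 without 10x warm replicate 1, and that of the NK cell list without 10x warm replicate 2 and per length. Endothelial markers fell on both sides, with 4 of 18 higher and 10 lower in 10x in cold and 3 and 10 in warm (median log2 -1.39 and -1.51), near the 56.4% and 58.3% of all genes that were lower. With DESeq2 8 were higher in either protocol, and 2 were lower in cold and 4 in warm. Of all 12932 genes tested, DESeq2 called 3580 higher and 3320 lower in cold and 3684 and 3910 in warm. The small surface proteins Ly6c1 and Plvap were 144 to 198 and 118 to 187 CPM in 10x against 53.2 to 60.7 and 48.1 to 66.4 in bulk. The long receptor genes Kdr and Ptprb were 22.6 to 40.6 and 11.9 to 31.7 against 195 to 251 and 270.5 to 325. Of the 9 markers each of fibroblasts and neutrophils, 2 and 3 were among the shared genes. Both fibroblast markers were lower in 10x in cold and 1 in warm, and of the 3 neutrophil markers 2 were higher and 1 lower in cold and 1 higher and 2 lower in warm.

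**Figure D3:**
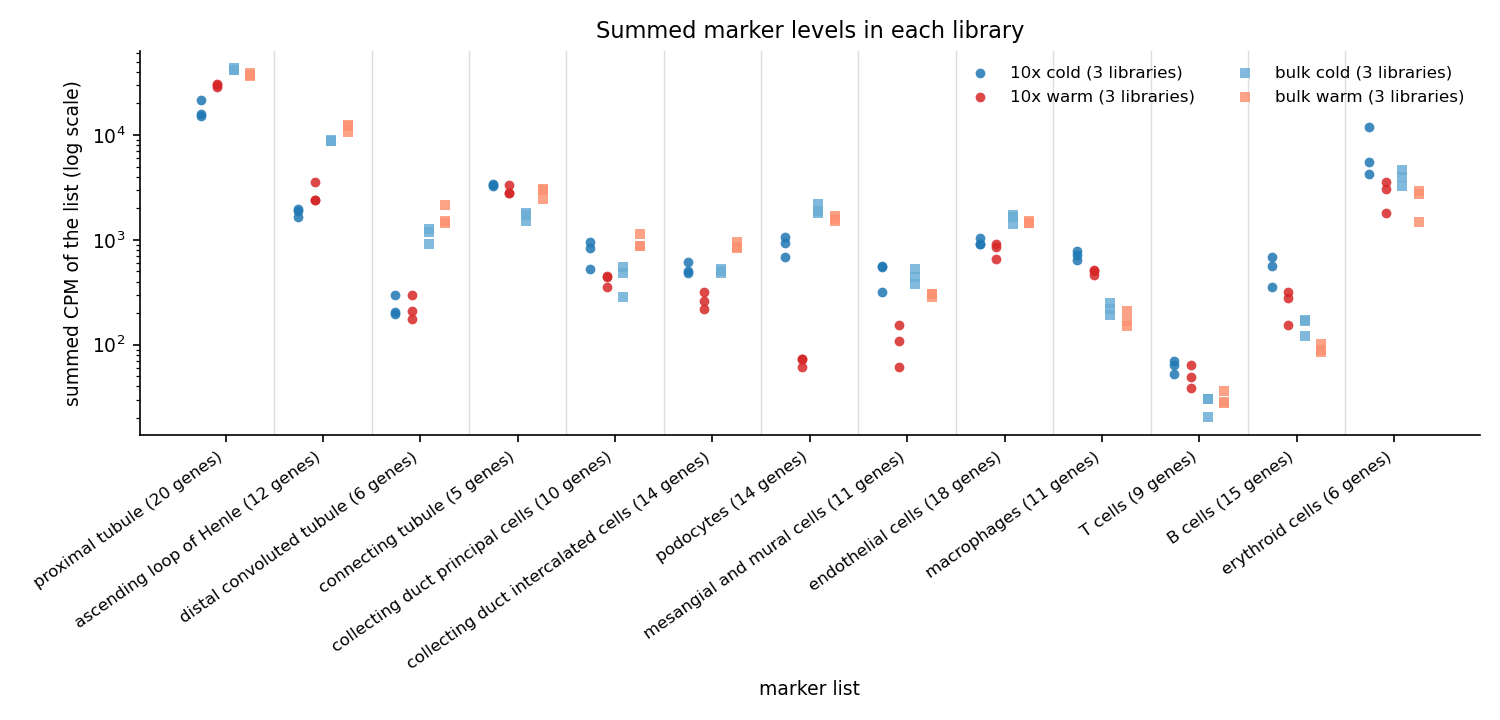
Summed level (CPM, log axis) of the shared markers of 13 cell types in each of the 12 libraries; circles, 10x sums, squares, bulk; blue, cold, red, warm. Podocyte sums are 683 to 1059.6 CPM in 10x cold, 60.9 to 73.5 in 10x warm and 1507 to 2214 in bulk, whereas macrophage sums lie higher in all 10x libraries than in any bulk library.

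Whether both assays gave the same difference between warm and cold dissociation was tested as an interaction, the log2 of warm over cold in 10x minus that in bulk. What is the same for a gene in both protocols, such as its length or its priming, cancels in this contrast. It was higher in 76 genes (0.588%) and lower in 455 (3.52%), with a median of -0.09 over all genes tested. Within an assay, warm suspensions differed from cold in 205 genes higher (1.59%) and 544 lower (4.21%) in 10x, and in 112 higher (0.866%) and 21 lower (0.162%) in bulk. With the mouse as a block, which only the 10x libraries allow, the 10x calls were 117 higher and 303 lower, against 130 and 333 for the 6 10x libraries alone without it. The bulk libraries alone gave 164 higher and 77 lower, so the counts of each assay depend on the joint fit. Of the 455 genes with a lower interaction, 300 were called lower in warm in 10x, 42 were called higher in warm in bulk and 116 were called in neither assay. Of the 455, 274 were above 0 in all 6 10x libraries. Leaving out 10x cold replicate 1 gave 161 genes with a higher interaction and leaving out bulk warm replicate 3 gave 45. The lower calls ranged from 312 to 667 as single libraries were left out, and the 21 lower calls of bulk fell to 7 without bulk cold replicate 3.

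**Figure D4:**
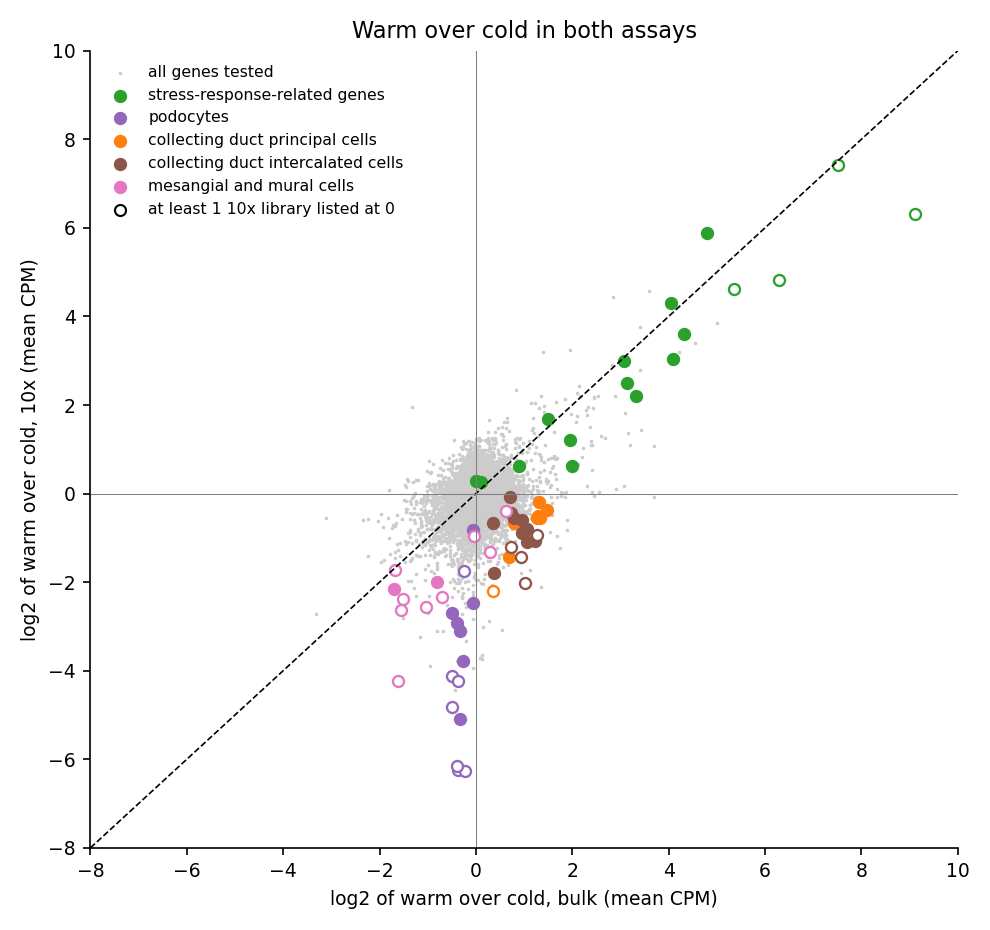
Log2 of warm over cold from mean CPM in 10x (y axis) against bulk (x axis) for the genes tested, with zeros at the floor of 10 UMIs or 3 reads; colours mark stress-response-related genes and markers of podocytes, principal, intercalated and mural cells, open points have a 10x library listed at 0, and the dashed line marks equality. Podocyte markers lie far below the line near 0 on the bulk axis, and principal and intercalated markers lie below the line and mostly to the right of 0.

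Podocyte markers had the lowest median interaction of all lists. Their sum was 683, 1059.6 and 936 CPM in 10x cold and 60.9, 73.5 and 72.5 in 10x warm. In bulk the sum was 1888, 2214 and 1792 in cold and 1578, 1507 and 1689.6 in warm suspensions, so warm lay below cold in both assays with no overlap, by far more in 10x than in bulk. Of 14 markers, 13 were lower in warm in 10x (median log2 -4.64, against 4.21% of all genes lower), none was called in bulk (median -0.35, against 0.162% lower) and 13 had a lower interaction (median -4.21, against 3.52%). These counts of 13 were the same under every setting tried. The medians moved, from -5.4 to -3.9 for 10x warm over cold and from -5.0 to -3.5 for the interaction. They include fitted values of genes at 0 in warm 10x, which are no measure of size. In cold suspensions 3 of the 14 were higher and 7 lower in 10x than in bulk (56.4% of all genes were lower; median log2 -1.16, against -1.38 for all genes, and above 0 with DESeq2 or TMM). In warm suspensions all 14 were lower, against 58.3% of all genes (median -5.08, against -1.51). Over the settings tried 13 or 14 were lower there, with the median from -6.1 to -3.8.

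Nphs1 (chr7:30458315-30487223), which encodes nephrin of the slit diaphragm, was 62, 119 and 117 CPM in 10x cold and listed at 0 in all 3 10x warm libraries. It stood at 87, 106 and 87.2 in bulk cold and 73.5, 71.3 and 69.4 in bulk warm. It was thus at least 70.9-fold lower in warm than in cold by 10x, and at least 51-fold lower in 10x than in bulk within the warm suspensions. Nphs1 was thus well above the listing limit in every cold 10x library and below it in warm 10x. By the study's own typing, the warm 10x libraries together held fewer podocytes than the 10 cells that list a gene. In bulk Nphs1 differed between the protocols by log2 -0.39, which was not called. Clic3 (chr2:25456838-25458776), a chloride channel family gene, was 77.6, 134 and 111 CPM in 10x cold, 0 in 10x warm, 12.5, 12.4 and 9.74 in bulk cold and 9.41, 11 and 9.04 in bulk warm. Podxl (chr6:31519488-31563981), which encodes the surface sialomucin podocalyxin, stayed above the limit, with 91.7, 146 and 129 CPM in 10x cold and 12.9, 15.1 and 20.3 in 10x warm. It stood at 654, 767 and 554 in bulk cold and 518, 457 and 534 in bulk warm, and its interaction was -2.55 (SE 0.25, adjusted p = 3.7e-05). Podxl is also made by endothelial cells, whose markers had 1 interaction call of 18. The interaction was -3.57 (SE 0.24, adjusted p = 1.2e-06) for Synpo, an actin-binding protein of foot processes. It was -4.57 (SE 0.36, adjusted p = 5.7e-06) for the cell cycle inhibitor Cdkn1c, which stood at 137, 195 and 159 CPM in 10x cold, 2.29, 8.11 and 3.97 in 10x warm and 16.7 to 28.1 in bulk. Npnt, a matrix ligand that tubules make as well, was the 1 marker with no call, at log2 -0.76 (SE 0.15, adjusted p = 0.0072), which is under the fold threshold. Nphs1, Clic3 and the other genes of the lowest interactions are named by their rank in that contrast, and Cdkn1c was chosen for mention after its values were seen.

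The summed markers of collecting duct principal cells were lower in warm than in cold by 10x and higher by bulk. Their sum was 953, 829 and 532 CPM in 10x cold and 446, 357 and 449 in 10x warm. In bulk it was 481, 556 and 287 in cold and 883, 873 and 1131 in warm suspensions, with no overlap between the protocols in either assay. Of 10 markers, 2 were lower in warm in 10x and none higher (median log2 -0.60), 6 were higher in warm in bulk and none lower (median 1.16), and all 10 had a lower interaction (median -1.80). Over all genes, 4.21% were lower in 10x, 0.866% higher in bulk and 3.52% had a lower interaction. Under the settings tried, 8 to 10 of the 10 had that call. In cold suspensions 3 were higher and 2 lower in 10x than in bulk (median log2 -0.14, above 0 with DESeq2, TMM or mitochondrial genes left out, and without 10x cold replicate 3 or bulk cold replicate 2), and in warm suspensions 1 was higher and 7 lower (median -1.75), beside 13.4% higher and 56.4% lower in cold and 13.6% and 58.3% in warm over all genes. Aqp2 (chr15:99579055-99584547), the vasopressin-regulated water channel, was 355, 295 and 216 CPM in 10x cold and 149.8, 119 and 188 in 10x warm. It was 100.2, 139 and 62.2 in bulk cold and 176, 219 and 234 in bulk warm, with an interaction of -1.99 (SE 0.35, adjusted p = 0.0031). Fxyd4, a regulator of the sodium pump, was 215, 211 and 136 CPM in 10x cold, 91.2, 45.2 and 70.5 in 10x warm. Its bulk level was 18.4, 24.1 and 8.75 in bulk cold and 29, 21 and 32.1 in bulk warm, and its interaction was -2.14 (SE 0.43, adjusted p = 0.0073). Hsd11b2, which protects the mineralocorticoid receptor from cortisol-like steroids, and Aqp3, the basolateral water channel, had interactions of -1.80 (SE 0.41, adjusted p = 0.014) and -1.55 (SE 0.37, adjusted p = 0.017). For Aqp2 all 10x libraries lay above all bulk libraries in cold, and the assays overlapped in warm, whereas for Fxyd4 10x stayed above bulk in both.

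The summed markers of intercalated cells were likewise lower in warm by 10x and higher in warm by bulk. Their sum was 483, 509 and 613 CPM in 10x cold and 259, 317 and 217 in 10x warm. The bulk sums were 504, 528 and 483 in cold and 851, 828 and 959.6 in warm suspensions. Of 14 markers, 7 were lower in warm in 10x and none higher (median log2 -0.90), 3 were higher in warm in bulk and none lower (median 0.94), against 4.21% and 0.866% of all genes. The counts for single assays depended on the settings, with 3 to 8 lower in 10x (3 without 10x cold replicate 3, 4 without 10x cold replicate 2 or 10x warm replicate 1) and 0 to 5 higher in bulk (0 without bulk cold replicate 3 or bulk warm replicate 3, 1 without bulk cold replicate 1, 5 without 10x warm replicate 2). A lower interaction was found for 12 (median -1.86, against 3.52% of all genes), with 9 to 13 under the settings tried. Atp6v1g3 (chr1:138273738-138289462), a subunit of the proton pump typical of these cells, was 267, 299 and 363 CPM in 10x cold and 143, 167 and 128 in 10x warm. Its level was 7.83, 8.39 and 5.45 in bulk cold and 11.6, 14.8 and 18.6 in bulk warm, with an interaction of -2.13 (SE 0.27, adjusted p = 2.7e-04). Atp6v1g3 made up most of each 10x sum but little of each bulk sum, so the sums of the assays weigh the markers differently. It passed the test in both assays with opposite signs, at log2 -1.09 in 10x and 1.05 in bulk. The only other genes with that pattern were Spink8 and Slc44a3, named after their values were seen, and no gene was called higher in warm in 10x and lower in bulk. These 3 were 0.55% of the 544 genes lower in 10x, where 0.866% of all genes were higher in bulk. They were 2.68% of the 112 higher in bulk, where 4.21% of all genes were lower in 10x, so the pattern was no more frequent than these shares. Slc26a4, the pendrin exchanger of base-secreting cells, was 17.7, 15.5 and 19 CPM in 10x cold, 9.90, 17.6 and 7.94 in 10x warm. It stood at 88.4, 88.6 and 80.7 in bulk cold and 166, 122 and 159.8 in bulk warm, and its interaction was -1.26 (SE 0.29, adjusted p = 0.015). Slc4a9, a bicarbonate transporter, had an interaction of -2.39 (SE 0.49, adjusted p = 0.0079). In cold suspensions 3 markers were higher and 6 lower in 10x than in bulk (median log2 -0.79, above 0 with DESeq2 or TMM), and in warm suspensions 2 and 10 (median -3.22), where 56.4% and 58.3% of all genes were lower. Atp4a and Hmx2 were the 2 markers with no interaction call, at -0.73 (SE 0.32, adjusted p = 0.16) for Atp4a. In the neighbouring connecting tubule, S100g, Calb1 and Slc8a1 had interactions of -0.99, -0.93 and -0.97, just under the fold threshold, and none of the 5 markers was called. Under the settings tried 0 to 4 were called lower, with 4 when mitochondrial genes were left out, 3 without 10x warm replicate 2 or bulk warm replicate 1, and 2 without 10x cold replicate 1 or bulk cold replicate 2.

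**Figure D5:**
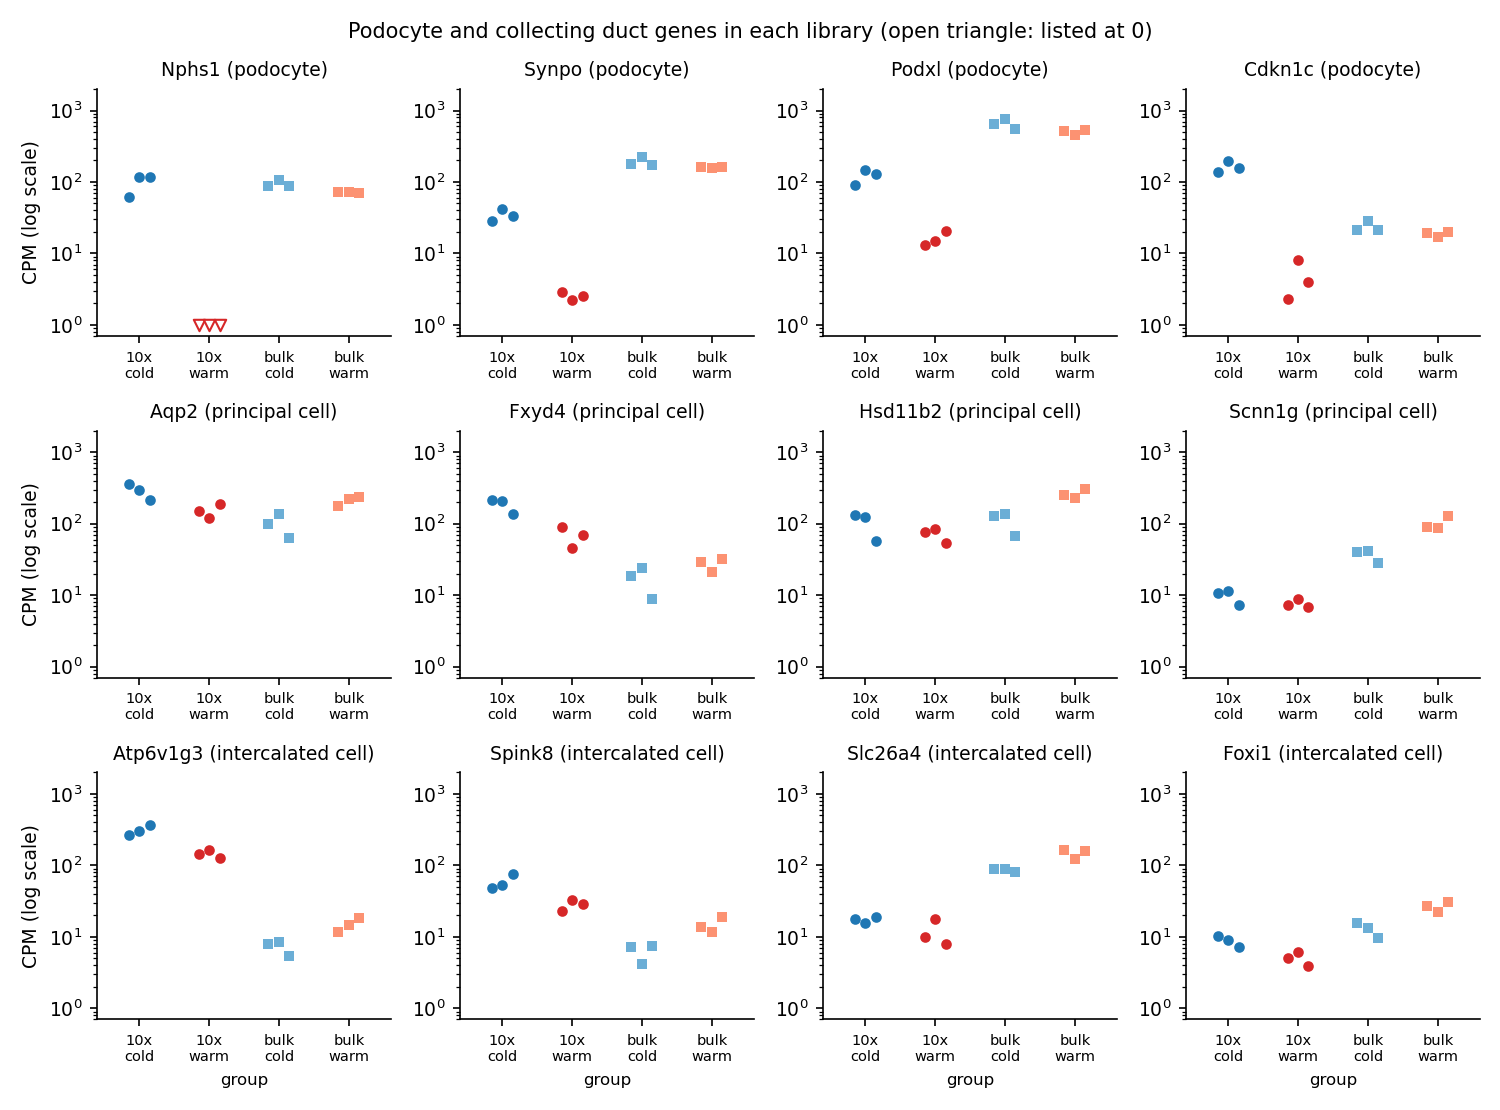
Level (CPM, log axis) in each library of 4 genes each of podocytes, principal cells and intercalated cells; circles, 10x, squares, bulk; blue, cold, red, warm; an open triangle marks a library in which the gene is listed at 0. Nphs1 is at 0 in all 3 warm 10x libraries but not in warm bulk, and warm Aqp2 and Atp6v1g3 lie below cold in 10x and above cold in bulk.

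Other cell types differed in how far the assays diverged. Over all genes 4.21% were lower in warm in 10x, 0.162% were lower in bulk and 3.52% had a lower interaction. Mesangial and mural markers were lower in warm in 10x for 9 of 11 and in bulk for 2 (6 with the bulk libraries alone). The 2 were the smooth muscle genes Acta2 (-2.21 in 10x and -1.70 in bulk, log2) and Myh11. Of the 11, 4 had a lower interaction, each at 0 in at least 2 of the 3 warm 10x libraries. Against bulk, 5 of the 11 were higher and 4 lower in cold 10x (median log2 0.87, below 0 per length), and 1 was higher and 6 lower in warm 10x (median -2.23, above 0 with 10x zeros set to 10 UMIs), beside 13.4% higher and 56.4% lower in cold and 13.6% and 58.3% in warm over all genes. Myh11, the smooth muscle myosin, was 34.5, 28.2 and 16.7 CPM in 10x cold, 0 in all 3 10x warm libraries, and 63.2, 77.6 and 48.2 in bulk cold and 22.2, 20.4 and 18.9 in bulk warm. It was thus at least 18.9-fold lower in warm by 10x. Ren1, the renin gene of juxtaglomerular cells, was 16, 113 and 48.6 CPM in 10x cold, 0, 54 and 35.9 in 10x warm. Its bulk levels were 25.9, 30.8 and 42.9 in cold and 21, 42.8 and 33 in warm suspensions, with overlap between the protocols in both assays. B cell markers were lower in warm in 10x for 9 of 15 (median log2 -1.22) and in bulk for 1, Ly6d (median -1.02), and 1 had an interaction call. The medians of the assays thus lay close for B cells, and the counts of calls were not stable. They were 2 to 10 in 10x (2 without 10x cold replicate 2, 5 without 10x cold replicate 1 or 10x warm replicate 3) and 0 to 6 in bulk (6 with the bulk libraries alone, 0 without any 1 of bulk cold replicates 1 and 3 and bulk warm replicates 1 and 2). Of 9 erythroid markers 6 were among the shared genes. These were lower in warm for 6 of 6 in 10x and none in bulk, with no interaction call (median interaction -0.68). The 6 fell to 1 without 10x cold replicate 3 and to 2 without 10x warm replicate 2, and bulk had 2 with the bulk libraries alone. Against bulk, 2 of the 6 were higher and 2 lower in cold 10x, and 1 was higher and 3 lower in warm 10x (median log2 0.30 and -0.55), but per length none was higher and 5 were lower in either protocol (median -2.07 and -2.94). Over all genes the shares per length were 8.82% higher and 50.5% lower in cold and 8.62% and 55% in warm. Up to 4 of the 6 markers were higher in cold and 3 in warm over the settings tried. Hbb-bs, the beta globin, was 2171, 2630.5 and 5874 CPM in 10x cold, 1451, 881 and 1735 in 10x warm, and 1637, 2051 and 2222 in bulk cold and 1536, 871 and 1448 in bulk warm. The summed proximal tubule markers went the other way in 10x. Their sum was 21492, 15932 and 15179 CPM in 10x cold, 29705, 30681 and 28851 in 10x warm. The bulk sums were 41788, 41669.8 and 43404 in cold and 39262, 37744 and 36345 in warm suspensions. Of the 20 markers, 2 were called higher in warm in 10x and none in bulk (median log2 0.40 and -0.14). Over all genes 1.59% were higher in 10x. Much of the rise of the 10x sum was that of Kap. The median interaction was 0.52, and Kap alone passed the test at log2 1.20 (SE 0.28, adjusted p = 0.015). Over the settings tried 0 to 4 markers did, with 0 without 10x cold replicate 3 and 4 without 10x cold replicate 1. Levels are shares of a total, and the part that the higher summed share of these markers in warm 10x plays in the lower shares of other types was not tested. Of 6 shared dendritic cell markers 3 had a lower interaction (median -3.13, and 0.02 with 10x zeros set to 10 UMIs). In the lists of macrophages, monocytes, T cells, NK cells, the ascending loop and the distal convoluted tubule none was called (at most 2 in a list under the settings tried), and 1 marker each was called lower for endothelial cells, fibroblasts and neutrophils.

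Of the 76 genes with a higher interaction, 38 were above 0 in all 6 10x libraries and 38 were at 0 in at least 1. The largest values rested mostly on such zeros, which enlarge the fitted value. Of the 10 with the largest log2 among genes with a mean of at least 10 CPM, 9 were listed at 0 in at least 1 cold 10x library. Among these 10, Fosb, an early response transcription factor, was called at 3.68, yet with zeros set to the listing limit the interaction of its means was -2.79, the opposite sign. Nccrp1 (chr7:28543596-28547254), an F-box family gene, was the 1 of the 10 without a zero in 10x. It was 5.65, 4.72 and 4.89 CPM in 10x cold and 56.9, 32 and 51 in 10x warm, and 4.93, 5.42 and 6.27 in bulk cold and 10.9, 18 and 14.7 in bulk warm. It was higher in warm in both assays, and more so in 10x, with an interaction of 1.79 (SE 0.37, adjusted p = 0.0089). At the other end, the lowest values given here were those of Clic3 and Nphs1, followed by Rab3b, Myom2, Myh11, Srgap1, Aqp4, Tdrd5 and Ddn, each of them at 0 in all 3 warm 10x libraries. With zeros at the limit the interaction of the means of these genes ranged from -6.03 to -2.30, below 0 in each.

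The assays shared part of their calls between the protocols in the fit of all 12 libraries. Of the 205 genes called higher in warm in 10x and the 112 in bulk, 55 were called in both (26.8% and 49.1%), and 7 of the 55 had an interaction call. Of the 544 called lower in 10x and the 21 in bulk, 13 were shared (2.39% and 61.9%), including Acta2, Myh11, the chemokine receptor gene Ccr2 and the lymphocyte genes Ltb and Ly6d. Among 17 stress-response-related genes, 13 were higher in warm in 10x and 14 in bulk (median log2 2.99 and 3.34), against 1.59% and 0.866% of all genes. The study picked this list from genes induced in its warm samples, so it is no independent evidence of direction. Against bulk, 5 were higher and 1 lower in cold 10x and 4 higher and 4 lower in warm 10x, beside 13.4% and 56.4% of all genes in cold and 13.6% and 58.3% in warm. These counts depended on the scaling, with 2 higher and 1 lower in cold and 1 higher and 7 lower in warm per length, and up to 11 higher in cold and 9 in warm over the settings tried. Of the immediate early genes, Ier2 rose in both assays, by log2 2.19 in 10x and 3.34 in bulk (interaction -1.15, SE 0.30, adjusted p = 0.025). Ier3 rose in bulk by 1.97 and was not called in 10x at 0.61 (interaction -1.36, SE 0.36, adjusted p = 0.026). Both interaction calls were lost without 10x cold replicate 2, bulk cold replicate 3 or bulk warm replicate 3, that of Ier2 also without bulk cold replicate 1 or bulk warm replicate 1 and that of Ier3 without bulk cold replicate 2. The values then ranged from -1.12 to -0.85 for Ier2 and from -1.39 to -1.02 for Ier3. Ier3 was 20.9, 28.3 and 25.5 CPM in 10x cold and 44.2, 33.8 and 37.9 in 10x warm, against 15.2, 12.2 and 7.43 in bulk cold and 39.6, 33 and 65.8 in bulk warm.

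Genes in the bulk files alone held 3.28% to 4.18% of the reads of a bulk library (3.74% ± 0.353, SD, n = 6). The 28 genes in the 10x files alone held at most 0.0107% of UMIs. Of the 14177 bulk-only genes, the ribosomal RNAs of the mitochondrial genome held 70.1% of these reads, with mt-Rnr2 at 16998 to 23769 and mt-Rnr1 at 4907 to 6796 CPM over all bulk genes. Rn7sk, Rpph1 and Rmrp, structural RNAs made by RNA polymerase III that carry no poly(A) tail, came next. Cct6a at 143 to 165 and Tug1 at 113 to 128 CPM over all bulk genes followed them. The study mapped 10x and bulk reads to different references, and why a gene was missing from the 10x files was not tested. Firre, a nuclear noncoding RNA of the X chromosome, was 84.2 to 110.0 CPM over all bulk genes in bulk cold and 121 to 154 in bulk warm. Protein-coding genes were 4555 of the bulk-only genes and held 9.45% of their reads.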

How the data were processed

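Per the labels and the study's methods, male C57BL/6J kidneys were dissociated cold or warm. The authors deposited UMI counts per gene and barcode for each 10x library (3′ chemistry, version 2, Cell Ranger 2.1.1, mm10), restricted to barcodes called as cells with EmptyDrops and filtered on genes and mitochondrial share, and to genes seen in at least 10 cells. They also deposited bulk read counts per gene (rRNA-depleted directional libraries, Trim Galore, ribosomal and low-complexity reads removed, STAR 2.6.1a, GRCm38 release 84, featureCounts); strand, duplicate and multimapping settings are not given in the sources used here.

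From these deposited counts, UMIs were summed over all barcodes of a library. The study's methods name no doublet caller, only the removal of barcodes with an outlying ratio of UMIs to genes; none was run here, so doublets are part of the sums. The 12 libraries entered 1 edgeR 4.0.16 quasi-likelihood fit (R 4.3.3) with 4 group means, library sizes over shared genes without TMM factors, filterByExpr, and Benjamini-Hochberg adjustment over 12932 genes; calls needed an adjusted p under 0.05 and a log2 difference of at least 1. All adjusted p-values are from this fit. It took 1 spread per gene for all 12 libraries, so each SE and adjusted p, also of the interaction, rests on a spread pooled over both assays. Fitted alone, 10x had fewer calls of warm against cold (130 higher and 333 lower, against 205 and 544 in the joint fit). Bulk had more (164 and 77, against 112 and 21). The test returns no SE. Each SE given is the size of the log2 difference divided by the square root of the test's F statistic. Depth, 5252363 to 14064480 UMIs and 5969212 to 8184923 reads per library, limits the precision of low values; sums count molecules or reads, and the spread between libraries enters through the fit. Positions, lengths and overlaps came from GENCODE M21 (GRCm38), and shared sequence from exact windows of 31 bases on either strand of its transcripts. Alternatives were TMM, DESeq2 1.42.0, no low-count filter, exonic length as an offset, mitochondrial genes left out, fold thresholds, each comparison's libraries alone and each library left out. Setting 10x zeros to 10 UMIs and a block on the mouse for 10x were added after seeing the data.

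The 19 cell type lists and 7 gene classes, and the comparison itself, were chosen with earlier results of these data known. Named genes are the 4 members of each list with the highest mean CPM, the stress and globin genes, and the 10 most extreme called genes per direction and contrast with a mean of at least 10 CPM; others are said to be chosen later, and 1 gene that the rule selects is not reported here. The mouse named in the 10x headers pairs cold with warm libraries: correlations of deviations from the group mean over 12045 genes were 0.178, 0.169 and -0.009 for the same mouse, and -0.220 to 0.124 for different mice. The study states that each experiment used kidneys of 3 mice, but no label says which mouse gave which bulk library. Fits were tested on simulated data.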

Additional observations from a re-analysis of the deposited data

Results flagged for a closer look

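The results below were picked out because the difference between warm and cold dissociation differed between the assays by the test of the interaction itself. Markers with a lower interaction numbered 13 of 14 for podocytes, 10 of 10 for principal cells and 12 of 14 for intercalated cells, against 3.52% of all genes tested. Among genes with a mean of at least 10 CPM, the lowest log2 interactions by edgeR given here were those of Clic3 (-12.4), Nphs1 (-12.1), Rab3b (-10.4), Myom2 (-9.05), Myh11 (-8.96), Srgap1 (-8.92), Aqp4 (-8.88), Tdrd5 (-8.79) and Ddn (-8.69). All of these were at 0 in all 3 warm 10x libraries, so these fitted values depend on the prior count and are no measure of size. The highest were those of Slc35f3 (7.15), Dyrk2 (7.01), Ptar1 (6.59), BC067074 (5.82), 9130011E15Rik (5.53), Ston2 (5.44), Sbno2 (5.39), Fosb (3.68), Ugt1a7c (2.67) and Nccrp1 (1.79), and all but Nccrp1 were at 0 in a cold 10x library. With zeros at the listing limit, the interaction of the means was 0.79 for Slc35f3, 0.60 for Dyrk2, 0.17 for Ptar1 and 1.22 for Ugt1a7c, and below 0 for BC067074, 9130011E15Rik, Ston2, Sbno2 and Fosb.

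Outside the shared genes, 3.74% of bulk reads (mean of 6 libraries) fell on genes found in the bulk files alone. Groups of 3 are too small for a search for single outlying samples.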

How the results depend on the processing

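The size of the all-gene median, the sign of some list medians and the balance of calls between 10x and bulk depended on scaling. The all-gene median kept its sign with CPM, TMM, DESeq2 and per length. With DESeq2, calls were 3580 higher and 3320 lower in cold, 3684 higher and 3910 lower in warm, 159 higher for the interaction, 316 higher for 10x warm over cold and 43 lower for bulk. With TMM they were 3416 and 3640 in cold and 3468 and 4210 in warm. Per exonic length 1134 were higher in cold and 1109 in warm. A log2 threshold of 2 gave 937 higher and 4432 lower in cold, 957 higher in warm, 37 and 204 for the interaction, 120 and 284 for 10x and 43 and 1 for bulk. Adjusted p alone gave 446 and 1006 for the interaction, 1233 and 1849 for 10x and 338 and 99 for bulk. The libraries of a comparison alone gave 130 and 333 for 10x and 77 lower for bulk, and zeros set to 10 UMIs gave 64 lower for bulk.

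Leaving out single libraries gave 1644 to 1769 higher and 7161 to 7428 lower in cold, 1696 to 1816 and 7410 to 7639 in warm, 45 to 161 higher (45 without bulk warm replicate 3, 161 without 10x cold replicate 1) and 312 to 667 lower for the interaction, 178 to 299 higher and 427 to 785 lower for 10x, and 85 to 127 higher and 7 to 25 lower for bulk (7 without bulk cold replicate 3). The gap between the medians of the shortest and longest decile stayed between 4.28 and 4.40 in cold and 4.65 and 4.75 in warm.

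No paired analysis was possible for 10x against bulk or for the interaction because the bulk libraries carry no mouse. For 10x warm over cold, the block on the mouse gave 117 higher and 303 lower.

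The following values of genes named here turned sign while past the threshold in at least 1 of the 2 fits. Per length, log2 of 10x over bulk was -0.77 for Kap, -0.73 for Wfdc15b, -1.23 for Klk1, -1.46 for Hbb-bs, -0.67 for Ier3, 1.05 for Neat1 and 2.74 for Kcnq1ot1 in cold, and -0.43 for Wfdc15b, -0.42 for S100g, -2.26 for Hbb-bs, 0.26 for Neat1 and 1.68 for Kcnq1ot1 in warm. With DESeq2 and TMM, it was 0.29 and 0.18 for Slc34a1 and 1.17 and 1.06 for Atp5b in warm, and 1.20 and 1.12 for Calb1 and 1.17 and 1.08 for Hsd11b2 in cold, and 1.04 with DESeq2 for Ier3 in warm. With zeros set to 10 UMIs, the interaction was -2.72 for Fosb, -0.23 for BC067074, -0.32 for 9130011E15Rik, -0.43 for Ston2 and -0.52 for Sbno2, 10x warm over cold was -0.12 for 9130011E15Rik and -0.080 for Ston2, and 10x over bulk in cold was 0.63 for Fosb. Another 119 values, of 40 genes, turned sign and were called in neither fit. Of those that kept their sign, 6175 kept their side of the threshold, 67 passed it only under the alternative and 157 no longer passed it. Of the counts of list members, 784 stayed within 1.5 times and 105 did not.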
